A study of Sus scrofa with 15 samples.

Results

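The genes described here encode the proteins at the centre of small RNA pathways in pig (*Sus scrofa*) oocytes: the Argonautes *AGO1*, *AGO2*, *AGO3* and *AGO4*, the PIWI proteins *PIWIL1*, *PIWIL2*, *PIWIL3* and *PIWIL4*, and the nucleases *DROSHA* and *DICER1*. They were chosen by symbol, 10 genes in all, out of 22516 genes in the deposited gene table. An Ensembl gene ID was paired with the symbol for 7 of the 10 genes, and *AGO1*, *AGO4* and *PIWIL1*, the 3 genes with no such pair, were not analysed here. Counts passed the filter on low values for 6 of the 7 genes, and the remaining gene, *PIWIL4*, was at or near 0. RNAseq was performed on 15 libraries of 15 oocytes each. The oocytes came from sow ovaries of a local abattoir, and no strain, genotype or age was used here. GV (germinal vesicle) oocytes, with 5 libraries, were taken from fresh cumulus oocyte complexes, stripped of their cumulus cells and not cultured. MII (metaphase II) oocytes, with 5 libraries, had extruded a polar body after 44 h of *in vitro* maturation, and ‘damaged’ oocytes, also with 5 libraries, had spent the same time in maturation medium and showed no polar body. MII and ‘damaged’ oocytes are called matured oocytes below, by their culture and not by their meiotic stage. GV replicate 3, with the lowest total, was left out of the fit, as the study left out a GV library of low depth, which leaves 4 GV libraries.

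Drosha cuts primary microRNA transcripts in the nucleus, and Dicer cuts the exported hairpins in the cytoplasm into short duplexes. An Argonaute protein keeps a strand of the duplex and, with partner proteins, represses mRNAs that pair with it. PIWI proteins carry another class of small RNA, the piRNAs, which silence transposons in germ cells and are made without Dicer. In mouse oocytes microRNAs repress little and Dicer is needed for endogenous small interfering RNAs, whereas *PIWIL3*, a gene that mice lack, is known for its expression in the oocytes of other mammals. The libraries measured polyadenylated mRNA, so the small RNAs themselves were not measured. Poly(A) tails were not measured either, so a change in mRNA amount and a change in tail that alters capture cannot be told apart.

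On the Sscrofa11.1 assembly, RefSeq places *AGO4* (91967499 to 92013030), *AGO1* (92038104 to 92076477) and *AGO3* (92081763 to 92225811) side by side on chromosome 6, and *AGO2* on chromosome 4 (2966794 to 3012388). *PIWIL1* (24729346 to 24760056), *PIWIL2* (6560402 to 6632524) and *PIWIL3* (42834819 to 42869486) are all on chromosome 14, and *PIWIL4* is on chromosome 9 (26679960 to 26751856). *DROSHA* lies on chromosome 16 (17727695 to 17847954) and *DICER1* on chromosome 7 (116361630 to 116436471).

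Estimated counts per library summed to between 6.40 M (GV replicate 3) and 23.6 M, and those of the 14 libraries in the fit to 12.0 M or more. Of the 15 columns of the gene table, 7 carried a name that disagreed with the library of the same total, so all gene counts were computed from the transcript files by their own labels, and results are also given for the 8 libraries whose column has their name. Counts per mega count (CPM) were scaled with TMM factors, which set the bulk of genes level between libraries. These factors were 1.35 to 1.73 in GV libraries and 0.794 to 0.922 in matured libraries, so the choice of scaling moved every comparison with GV. Oocyte markers were abundant as a sum, at 11139 to 13140 CPM in GV, 8424 to 11348 CPM in MII and 10284 to 11918 CPM in ‘damaged’ libraries. Of the 13 listed, 10 had an ID and all 10 passed the filter. They were not all high, and *FIGLA* had 37.6 CPM in GV, 4.17 CPM in MII and 4.45 CPM in ‘damaged’ oocytes. At an FDR below 0.01, 4 of the 10 were lower and 2 higher in MII, and 5 lower and 2 higher in ‘damaged’ oocytes. Of all genes 34.2% were lower and 28.2% higher in MII, and 33.4% and 28.0% in ‘damaged’ oocytes. Cumulus and granulosa cell markers were low, with a summed level over the 11 of 17 with any count of 32.5 to 39.0 CPM in GV, 16.2 to 29.4 CPM in MII and 16.5 to 27.8 CPM in ‘damaged’ libraries. Of these 11 genes, *SERPINE2* and *GREM1* had the highest GV means, at 16.7 and 15.5 CPM. *GREM1* fell to 5.10 CPM in MII and 5.28 CPM in ‘damaged’ oocytes (limma-voom log2 fold change -1.60 and -1.56, FDR = 4.46e-07 and 5.44e-07). *SERPINE2* had 12.3 and 11.6 CPM (-0.45 and -0.51), with no call with TMM factors. A lower mean than GV in both matured groups was found for 8 of the 11 genes. Among them were also the defining granulosa genes *FSHR*, *AMH* and *INHA*, which averaged 0.450, 0.221 and 0.146 CPM in GV, with *AMH* at 0 counts in MII. Both means were higher than GV for 2 genes, and 1, *TNFAIP6*, had 0.593 CPM in GV, 0.795 CPM in MII and 0.0397 CPM in ‘damaged’ oocytes. *CYP11A1* had 0.0127 CPM in GV, 0.315 CPM in MII and 0.137 CPM in ‘damaged’ oocytes. *PTGS2*, an enzyme of prostaglandin synthesis, rose from 0.677 CPM to 1.57 and 1.61 CPM (log2 fold change 1.26 and 1.31, FDR = 0.00146 and 0.000978), with 0.33 and 0.42 and no call on library sizes. The part of these cells in the results below was not tested. None of the 5 blood cell markers passed the filter, and the 4 with an ID summed to at most 1.97 CPM.

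Among the members with values, PIWI genes gave both the highest and some of the lowest. *PIWIL3* had 253, 220, 276 and 201 TMM-scaled CPM in GV replicates 1, 2, 4 and 5. In MII replicates 1 to 5 it had 136, 150, 144, 146 and 127 CPM, and in ‘damaged’ replicates 1 to 5 it had 119, 135, 117, 132 and 131 CPM. Every matured library thus lay below every GV library. The mean fell from 238 CPM ± 33.5 (SD, n = 4) in GV to 141 CPM ± 9.24 (n = 5) in MII and to 127 CPM ± 8.02 (n = 5) in ‘damaged’ oocytes. The log2 fold change was -0.75 (SE 0.12, FDR = 1.55e-05) in MII against GV and -0.90 (SE 0.12, FDR = 1.73e-06) in ‘damaged’ against GV, both from limma-voom. Values are shares of a library, so less *PIWIL3* mRNA per oocyte and more of other mRNAs cannot be told apart. Both comparisons share the GV libraries and are not independent of each other. In the 8 libraries whose column has their name, *PIWIL3* was still called, at a log2 fold change of -0.73 (FDR = 0.00488) in MII and -0.86 (FDR = 0.00163) in ‘damaged’ oocytes.

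*PIWIL2*, known as a partner of piRNAs in the male germ line, did not pass the test in either comparison. It had 12.3, 17.1, 14.5 and 14.7 CPM in GV replicates 1, 2, 4 and 5. Its MII libraries had 12.4 to 14.7 CPM with a median of 12.9, and its ‘damaged’ libraries 9.92 to 17.3 CPM with a median of 14.4. The groups overlapped. The log2 fold change was -0.11 (95% interval -0.45 to 0.22, FDR = 0.557) in MII and -0.08 (95% interval -0.41 to 0.25, FDR = 0.687) in ‘damaged’ oocytes, so a fall as large as that of *PIWIL3* lies outside both intervals. *PIWIL4*, whose product is known from transposon silencing in male germ cells, had 0 counts in each of the 8 gene table columns that carry their library's name, which allows up to 0.127 to 0.220 CPM by the 3 counts that a count of 0 leaves possible. That limit covers counting error only. Of the other 7 columns, 6 were at 0 and the column with the total of GV replicate 1 held 3.99 counts.

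Because *PIWIL3* and *PIWIL2* are read in the same libraries, their ratio does not depend on the scaling between libraries. The pair was chosen after its values were seen, so the ratio is no separate test of the fall of *PIWIL3*. In TPM, Kallisto's level per transcript length and library total, there were 24.3, 15.2, 22.5 and 16.2 *PIWIL3* transcripts per *PIWIL2* transcript in GV replicates 1, 2, 4 and 5. The ratio was 10.2 to 13.8 in MII libraries, all below GV (two-sided exact permutation test on the log2 ratio, p = 0.0159, the smallest that 4 against 5 libraries can give). In ‘damaged’ libraries it was 8.75 to 15.7, and replicate 4, at 15.7, lay above GV replicate 2 (exact permutation p = 0.0317). GV replicate 3, outside the fit, had a ratio of 10.7, within the range of the matured libraries.

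Among the Argonautes, *AGO3* was lower after maturation and *AGO2* was not called. *AGO3*, an Argonaute that binds microRNAs much as its relatives do, had 11.4, 12.7, 14.1 and 12.0 TMM-scaled CPM in GV replicates 1, 2, 4 and 5. It had 7.43, 8.00, 7.86, 6.66 and 8.32 CPM in MII replicates 1 to 5, and 8.52, 6.92, 7.67, 7.66 and 8.43 CPM in ‘damaged’ replicates 1 to 5. No matured library reached the lowest GV library. Limma-voom gave a log2 fold change of -0.71 (SE 0.15, FDR = 0.000317) in MII and -0.68 (SE 0.15, FDR = 0.000512) in ‘damaged’ oocytes. In the 8 libraries whose column has their name the values were -0.74 and -0.68, no longer past the threshold at FDR = 0.0164 and 0.0265, with 2 GV libraries left in that fit. GV replicate 3 had 38.0 CPM of *AGO3*, far above all others, and with all 5 GV libraries in the fit *AGO3* was still called lower.

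*AGO2*, the Argonaute whose slicer activity cuts perfectly paired targets, had 15.3, 25.0, 19.8 and 25.7 CPM in GV replicates 1, 2, 4 and 5. Its level was 21.4 to 25.9 CPM in MII libraries and 20.3 to 34.1 CPM in ‘damaged’ libraries, and both ranges overlapped that of GV. Against GV it had a log2 fold change of 0.16 (SE 0.17, FDR = 0.405) in MII and 0.30 (SE 0.17, FDR = 0.126) in ‘damaged’ oocytes. Counted per length, there were 0.534, 0.365, 0.513 and 0.337 *AGO3* transcripts per *AGO2* transcript in GV replicates 1, 2, 4 and 5. Matured libraries had 0.206 to 0.264 in MII and 0.178 to 0.246 in ‘damaged’ oocytes, below GV in 10 of 10 libraries (two-sided exact permutation p = 0.0159 for each group). This ratio does not depend on the scaling between libraries, within the limits of how reads were split between transcripts. The pair was chosen after its values were seen in these same libraries. Its ratio is thus no separate test of the fall of *AGO3*.

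The nucleases did not pass the test in either comparison. *DROSHA* had 28.2, 26.8, 28.8 and 22.7 TMM-scaled CPM in GV replicates 1, 2, 4 and 5. It had 37.4, 39.0, 36.4, 38.8 and 26.9 CPM in MII replicates 1 to 5, so that 4 of 5 MII libraries lay above all GV libraries and replicate 5 did not. In ‘damaged’ libraries it had 24.4 to 37.8 CPM with a median of 30.9, overlapping with GV. Its log2 fold change was 0.42 (SE 0.16, FDR = 0.0225) in MII and 0.20 (SE 0.16, FDR = 0.265) in ‘damaged’ oocytes. *DROSHA* was called higher in MII with DESeq2 (log2 fold change 0.48, FDR = 0.00530) and without MII replicate 5 (0.52, FDR = 0.00480).

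*DICER1* had 19.6, 24.3, 22.2 and 31.2 CPM in GV replicates 1, 2, 4 and 5, 24.3 to 32.9 CPM in MII libraries and 19.6 to 38.0 CPM in ‘damaged’ libraries, which all overlapped. Its log2 fold change was 0.28 (95% interval -0.09 to 0.66, FDR = 0.191) in MII and 0.12 (95% interval -0.26 to 0.49, FDR = 0.604) in ‘damaged’ oocytes. There were 1.03 to 2.03 *DROSHA* transcripts per *DICER1* transcript in GV, 1.56 to 1.92 in MII and 0.903 to 2.18 in ‘damaged’ libraries, and this ratio did not separate the groups (exact permutation p = 0.667 for MII and 0.794 for ‘damaged’ oocytes against GV).

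**Figure D1:**
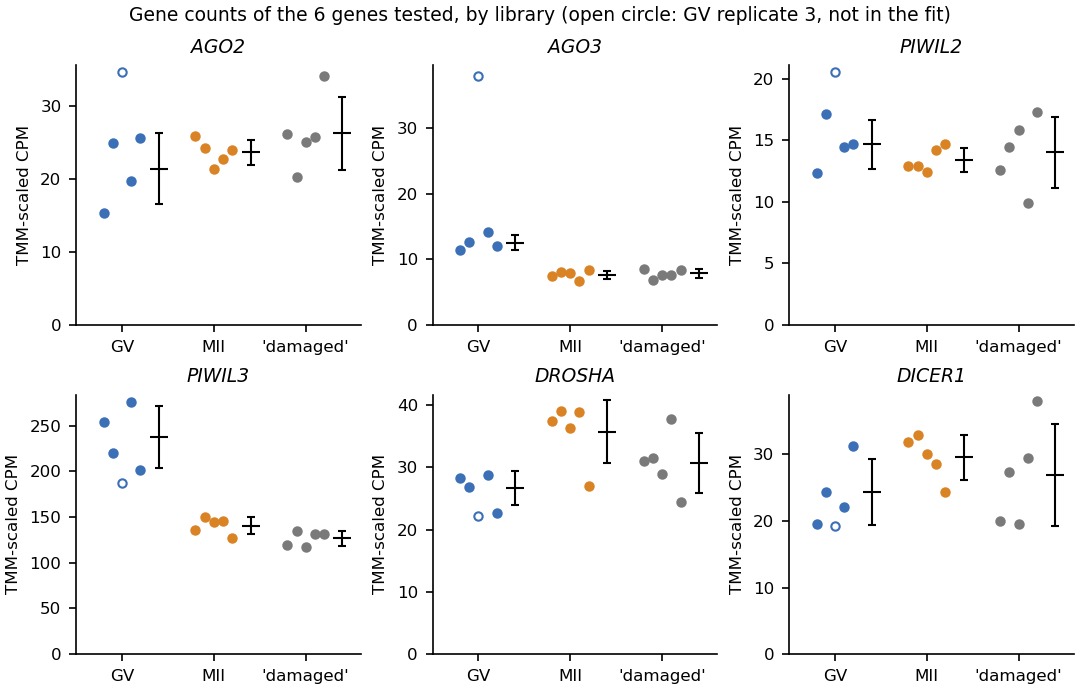
TMM-scaled CPM of the 6 genes tested, in GV, MII and ‘damaged’ libraries, with each library as a point, the mean and SD of each group as a bar, and GV replicate 3, left out of the fit and of the means, as an open circle. For *AGO3* and *PIWIL3* the 10 matured libraries all lie below the filled GV points, and the groups overlap for the other 4 genes. How many of all genes tested separate in this way was not counted, so it does not set these genes apart.

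Counted over the family, 2 of 6 genes were lower and 0 were higher in MII against GV at an FDR below 0.01, whereas of all 13230 genes tested 34.2% were lower and 28.2% higher. In ‘damaged’ against GV it was again *AGO3* and *PIWIL3* that were lower and 0 were higher, beside 33.4% lower and 28.0% higher of all genes. With 6 genes, shares of this size do not set the family apart from the table. None of the 6 genes passed the stricter rule of the study for a differentially expressed gene (DEG), an FDR below 0.01 with an absolute log2 fold change over 2. That rule was met by 17.1% of all genes as lower and 4.50% as higher in MII, and by 16.4% and 4.08% in ‘damaged’ oocytes. Over all genes the median was -0.17 in MII and -0.14 in ‘damaged’ oocytes on the log2 scale.

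The sign of 3 of the 6 genes depended on the scaling. On library sizes, without normalization factors, the median of all genes moved to -1.08 in MII and -1.01 in ‘damaged’ oocytes, and all 6 genes had negative values. *AGO2* then had a log2 fold change of -0.74 (FDR = 0.00372) in MII and -0.56 (FDR = 0.0199) in ‘damaged’ oocytes, *DROSHA* -0.50 (FDR = 0.00466) and -0.67 (FDR = 0.000430), and *DICER1* -0.62 (FDR = 0.0160) and -0.75 (FDR = 0.00511). On the same scale *PIWIL2* had -1.02 (FDR = 0.000105) and -0.95 (FDR = 0.000218), *AGO3* -1.63 and -1.55, and *PIWIL3* -1.66 and -1.77.

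Set against the median of all genes, the scalings gave nearly the same values by arithmetic. A change of scaling moves all genes by about the same amount, and the subtraction takes that out. The match is thus no added evidence. After subtraction of that median, *PIWIL3* had -0.58 in MII and -0.76 in ‘damaged’ oocytes on the log2 scale with either scaling, and *AGO3* had -0.54 in each comparison. *PIWIL2* had 0.06 in each comparison and so lay near the median. *DROSHA* had 0.59 in MII with either scaling, and in ‘damaged’ oocytes 0.34 with TMM factors and 0.33 on library sizes. *DICER1* had 0.46 in MII and 0.25 in ‘damaged’ oocytes with either scaling, and *AGO2* 0.34 and 0.44 with either. *DROSHA*, *DICER1* and *AGO2* thus lay above the middle gene of the table, while the side of 0 on which they lay changed with the scaling.

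**Figure D2:**
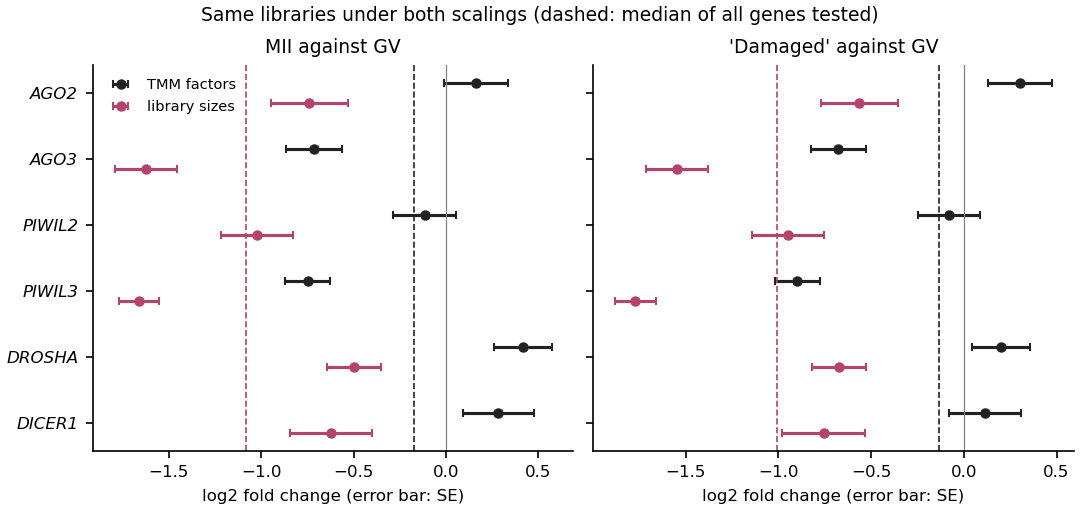
Log2 fold change with its SE of the 6 genes tested, in MII against GV and in ‘damaged’ against GV, from the same 14 libraries with TMM factors (black) and on library sizes (red), with the median of all 13230 genes as a dashed line in the same colour. *AGO3* and *PIWIL3* lie left of their dashed line, and *AGO2*, *DROSHA* and *DICER1* change side of 0 between the scalings but not of their dashed line. The dashed line moves with the scaling much as the genes do, so the side of it is kept by arithmetic.

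In levels per transcript length, *PIWIL3* stood apart from the other genes tested. It had 107 to 139 TPM in the GV libraries of the fit, 31.9 to 39.8 TPM in MII and 28.4 to 39.1 TPM in ‘damaged’ libraries. *DROSHA* followed with 14.5 TPM ± 1.31 (SD, n = 4) in GV, 9.44 TPM ± 1.32 (n = 5) in MII and 8.37 TPM ± 1.11 (n = 5) in ‘damaged’ oocytes. The ranges of these top genes did not overlap in any group, and the mean of *PIWIL3* was 8.43 times that of *DROSHA* in GV, 3.73 times in MII and 3.95 times in ‘damaged’ oocytes. In GV the order went on with *DICER1* at 9.72 TPM ± 3.50, *AGO2* at 9.57 TPM ± 3.45, *PIWIL2* at 6.53 TPM ± 1.62 and *AGO3* at 3.94 TPM ± 0.711, and each of these overlapped with its neighbour, as did *DROSHA* with *DICER1*.

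In MII the same order held, and only *DICER1* (5.53 TPM ± 0.643) and *AGO2* (4.94 TPM ± 0.233) overlapped, with *PIWIL2* at 2.84 TPM ± 0.218 and *AGO3* at 1.15 TPM ± 0.132. In ‘damaged’ oocytes *AGO2* (5.76 TPM ± 1.61) and *DICER1* (5.31 TPM ± 1.97) stood in the opposite order but overlapped, and *AGO3*, at 1.22 TPM ± 0.174, was again the lowest with no overlap with *PIWIL2* (3.11 TPM ± 0.852). *PIWIL3* made up 73.6% ± 3.93 (SD, n = 4) of the summed TPM of the 6 genes in GV, 59.6% ± 1.18 (n = 5) in MII and 58.3% ± 1.64 (n = 5) in ‘damaged’ oocytes, with no overlap between GV and either matured group (exact permutation p = 0.0159 for each). This share draws on the same libraries and is no separate test of the fall of *PIWIL3*. TPM is scaled to the library total, so its falls are of the size seen on library sizes and not of that with TMM factors.

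**Figure D3:**
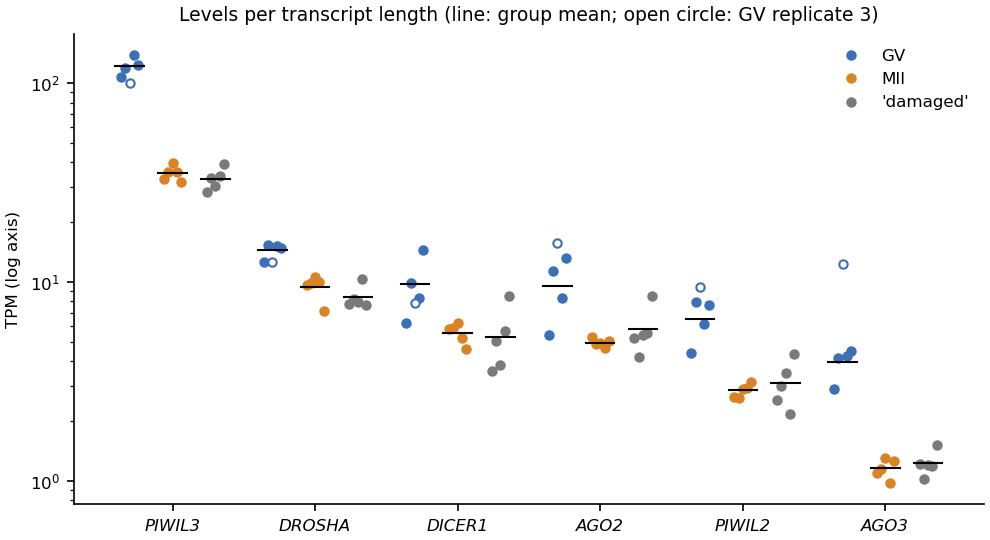
TPM, on a log axis, of the 6 genes tested in GV, MII and ‘damaged’ libraries, with each library as a point, the group mean as a line and GV replicate 3 as an open circle. *PIWIL3* is the highest gene and *AGO3* the lowest by mean in every group, and GV replicate 3 stands far above the other GV libraries for *AGO3*, at 12.3 TPM.

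MII and ‘damaged’ oocytes were also compared directly. None of the 6 genes was called, nor was any of the 13230 genes (0%), and the smallest FDR of the whole table was 1.00 with limma-voom, 1.00 with edgeR and 0.381 with DESeq2. With limma-voom it was 0.299 without a filter on low counts and 0.0236 with the replicate number as a block, with 0 genes called in either fit. At an unadjusted p below 0.05 there were 194, 271, 250, 432 and 353 genes in these 5 fits, none of them among the 6 genes. The log2 fold change of ‘damaged’ against MII was -0.22 (95% interval -0.51 to 0.08) for *DROSHA*, -0.17 (-0.53 to 0.19) for *DICER1*, -0.15 (-0.38 to 0.08) for *PIWIL3*, 0.14 (-0.19 to 0.46) for *AGO2*, 0.04 (-0.27 to 0.34) for *AGO3* and 0.03 (-0.29 to 0.36) for *PIWIL2*. These intervals leave room for differences of up to 0.53 on the log2 scale. They do not show that the groups had equal levels.

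Transcripts of the members were then examined, 32 in all, of which 17 passed the filter. In MII against GV 0 were lower and 1 was higher at an FDR below 0.01, and of all 22240 transcripts tested 26.5% were lower and 21.5% higher. In ‘damaged’ against GV 1 was lower and 1 higher, beside 25.8% and 21.4% of all transcripts. These counts are with TMM factors. On library sizes, transcripts of *AGO3*, *PIWIL2*, *PIWIL3* and *DROSHA* were called lower in each comparison. Of all 22240 transcripts, 9146 were then lower and 2483 higher in MII, and 8827 and 2512 in ‘damaged’ oocytes. Kallisto shares reads between similar isoforms of a gene by its own estimate, so values of single isoforms are less certain than those of their gene.

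The transcript called higher in both comparisons belonged to *DROSHA*. ENSSSCT00000018300.4, of 4523 bases, had 18.8, 10.4, 14.3 and 8.92 estimated counts in GV replicates 1, 2, 4 and 5, and 4.95 in GV replicate 3. It had 51.6, 49.6, 56.1, 85.9 and 59.4 counts in MII replicates 1 to 5, and 46.5, 42.0, 54.1, 84.4 and 65.4 counts in ‘damaged’ replicates 1 to 5. Each of the 10 matured libraries thus had more counts than any GV library even before scaling. Against GV this was a log2 fold change of 2.65 (SE 0.33, FDR = 1.04e-05) in MII and 2.54 (SE 0.33, FDR = 1.58e-05) in ‘damaged’ oocytes, 1.84 and 1.77 on library sizes (FDR = 0.000225 and 0.000323), and 2.90 and 2.94 in the 8 libraries whose column has their name (FDR = 0.00322 and 0.00313).

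Within the gene, this isoform made up 3.31%, 1.97%, 2.33% and 1.62% of the *DROSHA* TPM in GV replicates 1, 2, 4 and 5. Its share was 9.32% to 13.2% in MII and 9.78% to 17.4% in ‘damaged’ libraries. The share differed by 9.29 percentage points in MII and 10.3 points in ‘damaged’ oocytes from GV, with no overlap (two-sided exact permutation p = 0.0159 for each, from 34 such tests over transcripts of 5 genes). The main isoform, ENSSSCT00000048093.3 of 4279 bases, held 89.1% to 92.5% in the GV libraries of the fit, 79.8% to 86.8% in MII and 78.9% to 85.6% in ‘damaged’ libraries (exact permutation p = 0.0159 for each). In GV replicate 3 the main isoform held 82.5%, within the range of the matured libraries, and ENSSSCT00000018300.4 held 2.08%, within that of GV. A change of scaling between libraries leaves all these shares as they are.

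*DICER1* had 2 transcripts. ENSSSCT00000050852.3, of 6017 bases, was at 0 in all 5 GV libraries and had over 3 estimated counts in 3 of 5 MII and 4 of 5 ‘damaged’ libraries. Its share of the *DICER1* TPM was 52.9% in MII replicate 4, 7.89% in MII replicate 5 and 1.72% in MII replicate 3, and below 0.001% in the others. In ‘damaged’ libraries it was 17.3%, 9.75%, 21.4%, 0.014% and 29.9% in replicates 1 to 5. Neither *DICER1* transcript passed the test on counts in either comparison. The remaining one, ENSSSCT00000038351.3, held 100% of the *DICER1* TPM in GV and 87.5% and 84.3% on average in MII and ‘damaged’ oocytes. The share tests gave two-sided exact permutation p = 0.0159 for both transcripts in each comparison. With ENSSSCT00000050852.3 at 0 in GV, any share above 0 separates a library from GV, and MII replicate 2 had 0.00010%. These p-values thus say little about the size of the shift.

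*PIWIL3* isoforms varied widely between libraries of a group. ENSSSCT00000105754.1, of 4723 bases, held 80.8%, 55.5%, 89.0% and 54.0% of the *PIWIL3* TPM in GV replicates 1, 2, 4 and 5, 65.5% to 87.9% in MII and 77.4% to 84.3% in ‘damaged’ libraries. ENSSSCT00000010902.5, of 4195 bases, held 27.3% in GV replicate 2, 29.6% in GV replicate 5 and 60.1% in GV replicate 3, and was at 0 in GV replicates 1 and 4. It reached at most 3.05% in MII and 5.20% in ‘damaged’ libraries. Other isoforms were more even in GV than in MII: ENSSSCT00000100413.1 held 9.56% to 19.2% in the GV libraries of the fit, 4.80% to 33.9% in MII and at most 17.3% in ‘damaged’ libraries, and ENSSSCT00000098658.1 was at 0 in all 5 GV libraries and reached 8.03% in MII and 4.52% in ‘damaged’ libraries. ENSSSCT00000094386.1 stayed at or below 5.41% in each library of the fit. The share tests of ENSSSCT00000105754.1 and ENSSSCT00000010902.5 gave exact permutation p = 0.492 and 0.333 for MII, and 0.286 and 0.333 for ‘damaged’ oocytes. With TMM factors ENSSSCT00000105754.1 was the member transcript called lower in ‘damaged’ oocytes (log2 fold change -0.75, SE 0.21, FDR = 0.00763). In MII it had -0.70 (SE 0.21, FDR = 0.0111). The call in ‘damaged’ oocytes was lost with all 5 GV libraries (-0.39, FDR = 0.357) and in the 8 libraries whose column has their name (-0.71, FDR = 0.105). On library sizes this isoform was called lower in MII (-1.47, FDR = 1.72e-05) and in ‘damaged’ oocytes (-1.49, FDR = 1.66e-05). So was ENSSSCT00000100413.1 (-1.55, FDR = 0.00142, and -1.92, FDR = 0.000350). The call of ENSSSCT00000105754.1 thus depended on the scaling and on the libraries used, while that of the gene did not.

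*AGO3* and *AGO2* each had 10 transcripts, of which 8 and 7 had over 3 estimated counts in at least 1 library, and 2 to 4 of them in any single library. ENSSSCT00000004027.5 of *AGO3*, of 7317 bases, held 57.6% of the gene's TPM on average in GV, 75.8% in MII and 71.3% in ‘damaged’ oocytes (exact permutation p = 0.0159 and 0.0317). With TMM factors its own log2 fold change was -0.43 (FDR = 0.0351) in MII and -0.47 (FDR = 0.0221) in ‘damaged’ oocytes, both short of the threshold. On library sizes it was called lower, at -1.20 (FDR = 3.68e-05) and -1.21 (FDR = 3.56e-05). ENSSSCT00000083850.1, at 16.7% of *AGO3* in GV on average, was present in some GV libraries and at 0 or next to 0 in matured ones (exact permutation p = 0.0952 for each). For *AGO2*, ENSSSCT00000006516.5 held 85.6% in GV, 58.0% in MII and 53.7% in ‘damaged’ oocytes, with groups that overlapped (exact permutation p = 0.111 and 0.190). Different isoforms led in different libraries. ENSSSCT00000006516.5 held 0.19% in ‘damaged’ replicate 2, where ENSSSCT00000082158.2 held 72.7%, and 25.0% in ‘damaged’ replicate 1, where ENSSSCT00000086750.2 held 54.8%. In MII replicate 4 it held 21.8%, beside 45.8% for ENSSSCT00000086750.2 and 32.3% for ENSSSCT00000072445.2, and in MII replicate 1 it held 37.6%, beside 36.2% for ENSSSCT00000062448.3. In GV replicate 3, outside the fit, ENSSSCT00000086750.2 held 67.0%. For *PIWIL2*, 1 transcript was found.

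**Figure D4:**
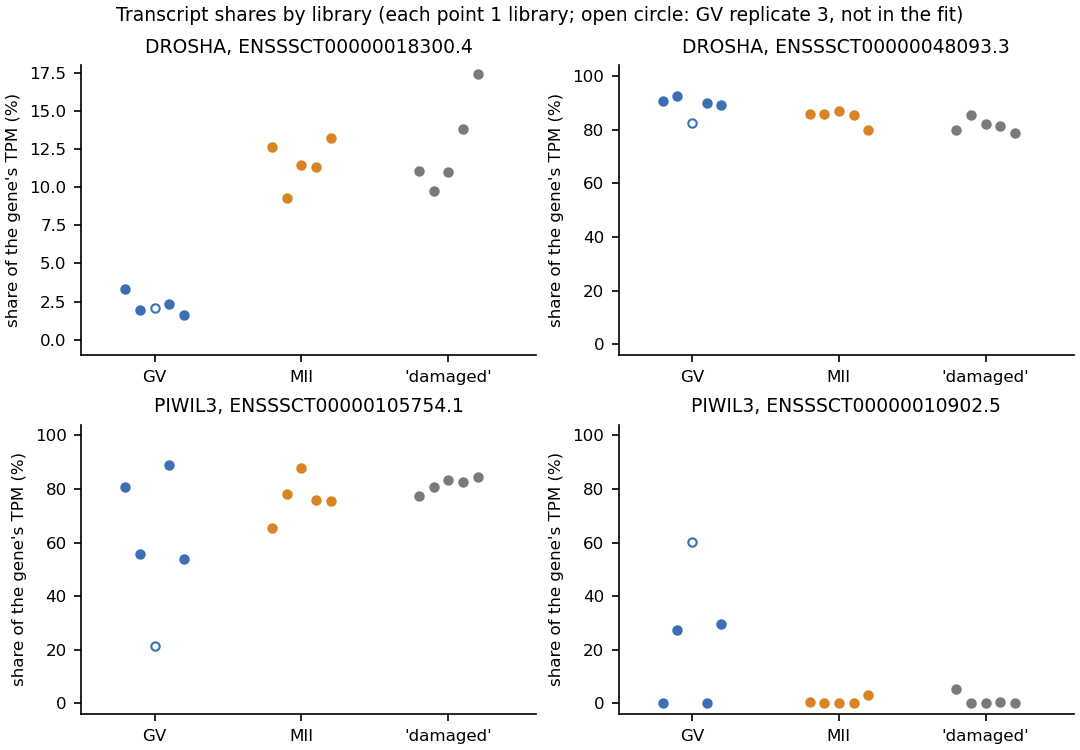
Share of the gene's TPM, in %, held by 2 *DROSHA* isoforms (top) and 2 *PIWIL3* isoforms (bottom), with each library as a point and GV replicate 3 as an open circle. The 10 matured libraries lie above all GV libraries for *DROSHA* ENSSSCT00000018300.4, whereas *PIWIL3* ENSSSCT00000010902.5 is at 0 in GV replicates 1 and 4 and at 27.3% to 60.1% in the other GV libraries.

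Partner genes of the same pathways were read from lists chosen by function. Of 16 genes that act with Drosha and Dicer, 13 were tested, and 6 were lower and 4 higher than GV at an FDR below 0.01 in MII as in ‘damaged’ oocytes (median log2 fold change -0.30 and -0.25, beside -0.17 and -0.14 for all genes). Of all genes 34.2% were lower and 28.2% higher in MII, and 33.4% and 28.0% in ‘damaged’ oocytes. *TARBP2*, the double-stranded RNA binding partner of Dicer, fell from 9.98 CPM in GV to 0.523 CPM in MII and 0.533 CPM in ‘damaged’ oocytes (log2 fold change -4.25 and -4.21). *PRKRA*, another Dicer partner of that kind, rose from 7.68 CPM to 20.2 and 20.0 CPM (1.43 and 1.38). *SRRT*, which helps Drosha act on primary microRNAs, fell by 2.42 and 2.44 on the log2 scale.

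*DGCR8*, the RNA-binding subunit that Drosha needs, fell from 18.4 CPM in GV to 4.62 CPM in MII and 5.20 CPM in ‘damaged’ oocytes, with log2 fold changes of -1.99 and -1.89. *LIN28B*, which binds precursors of let-7 microRNAs, had -2.02 and -1.89, and *ADAR*, which edits adenosines in double-stranded RNA, had -2.02 and -1.97, and both met the DEG rule in MII and missed it in ‘damaged’ oocytes, with no call for either in ‘damaged’ against MII. *LIN28A*, the relative of *LIN28B*, rose by 1.30 and 1.53, and *TENT2*, a poly(A) polymerase of the oocyte cytoplasm, by 1.45 and 1.30. *DROSHA* and *DICER1*, which were not called, thus stood beside partners that moved in both directions. On library sizes 9 of these 13 genes were lower and 1, *TENT2*, was higher in each comparison, when 57.5% of all genes were lower and 11.0% higher in MII, and 55.9% and 11.2% in ‘damaged’ oocytes.

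Of 20 genes that load Argonautes or act with them, 19 were tested. In MII 6 were lower and 6 higher, and in ‘damaged’ oocytes 6 were lower and 5 higher (median 0.20 and 0.14, beside -0.17 and -0.14 for all genes). These counts lie near the 34.2% lower and 28.2% higher of all genes in MII, and 33.4% and 28.0% in ‘damaged’ oocytes. The lower genes all met the DEG rule. *AJUBA*, a LIM protein of the Argonaute complex, fell from 115 CPM in GV to 4.35 and 5.73 CPM (log2 fold change -4.79 and -4.42), and *MOV10*, an RNA helicase found with Argonautes, from 16.8 CPM to 0.782 and 0.691 CPM (-4.46 and -4.62). *ZSWIM8*, part of a ubiquitin ligase that removes Argonautes in target-directed microRNA decay, had -3.46 and -3.66. *LIMD1*, a relative of *AJUBA*, had -3.20 and -2.41, and the co-chaperone *FKBP4* had -3.12 and -3.13.

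The GW182 proteins link Argonautes to mRNA decay, and their genes differed. *TNRC6C* had -3.01 and -2.34 at a level of 0.740 CPM in GV, *TNRC6B* rose from 59.9 CPM to 114 and 108 CPM (0.93 and 0.85), and *TNRC6A* had 0.39 (FDR = 0.0604) and 0.36 (FDR = 0.0772) with no call. *AHSA1*, a co-chaperone of Hsp90, had the largest rise of the list, from 198 CPM to 793 and 765 CPM (2.0 and 1.95 on the log2 scale), and *HSP90AB1*, an Hsp90 gene, rose by 1.80 and 1.77. On library sizes 10 of the 19 genes were lower and 2 higher in each comparison, beside the 57.5% and 55.9% lower of all genes.

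Of 31 genes of the piRNA pathway, 24 had an ID and 23 were tested. In MII 6 were lower and 11 higher, and in ‘damaged’ oocytes 5 were lower and 11 higher (median 0.55 and 0.50, beside -0.17 and -0.14 for all genes). Of all genes 34.2% were lower and 28.2% higher in MII, and 33.4% and 28.0% in ‘damaged’ oocytes. *PIWIL3* fell beside a list with more rises than falls under TMM scaling, an order that turned on library sizes. *HENMT1*, the methyltransferase that protects the 3′ end of piRNAs, rose from 760 CPM in GV to 3141 and 3024 CPM (log2 fold change 2.06 and 2.01). *TDRD6*, a Tudor protein of germ cell granules, rose from 31.3 CPM to 136 and 118 CPM (2.09 and 1.91). *PLD6*, the mitochondrial protein known from the making of piRNA ends, fell from 4.51 CPM to 0.426 and 0.476 CPM (-3.25 and -3.31). *KIF17*, a kinesin known from male germ cells, had -2.63 and -2.19. On library sizes 10 of the 23 genes were lower and 5 higher in MII, and 11 lower and 5 higher in ‘damaged’ oocytes, with a median of -0.36 and -0.38 beside -1.08 and -1.01 for all genes, of which 57.5% were lower and 11.0% higher in MII, and 55.9% and 11.2% in ‘damaged’ oocytes.

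**Figure D5:**
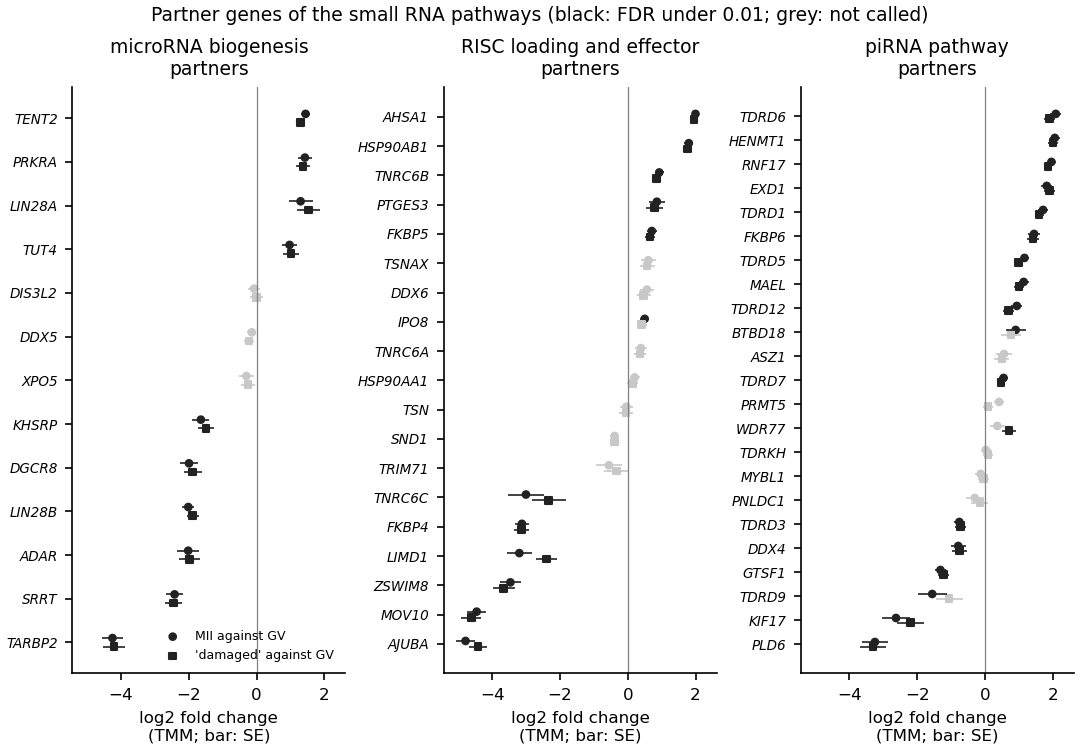
Log2 fold change with its SE, with TMM factors, of the tested genes of 3 partner lists in MII against GV (circles) and ‘damaged’ against GV (squares), black where the FDR is below 0.01 and grey otherwise. *TARBP2*, *AJUBA*, *MOV10* and *PLD6* lie far to the left, and the piRNA list has more black points on the right than on the left.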

How the data were processed

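Libraries of GV, MII and ‘damaged’ pig oocytes, 5 of each, were grouped by their GEO titles. The authors estimated counts and TPM per transcript with Kallisto 0.43 from the cDNA of Sscrofa11.1, and deposited estimated counts per gene from tximport (lengthScaledTPM), unnormalized. TPM values were made by the authors with Kallisto.

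Of the 15 columns of the gene table, 8 carried the name of the library with the same total. The other 7 were not used, except to check members against the library of the same total (largest difference 0.00878%) and for *PIWIL4*. Transcripts of 18389 genes were found by matching runs of transcripts to the 8 columns, and gene counts were then recomputed for every library from its transcript file.

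Genes passing filterByExpr (edgeR 4.0.16) were tested with limma 3.58.1 (voom, TMM) in R 4.3.3 in 1 fit of 14 libraries, with Benjamini-Hochberg adjustment over all 13230 genes. TMM is not named in the study's methods. Intervals of log2 fold changes are 1.96 SE to each side. Ratios and shares were tested with scipy 1.17.1 by two-sided exact permutation, and the ratios were chosen after their values were seen. edgeR and DESeq2 1.42.0 were alternatives on rounded counts. The matching of transcripts and the gene fits against GV were checked on simulated data. The permutation tests, the transcript fit and ‘damaged’ against MII were not.

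All 10 members are named, and of partner lists every DEG, the largest rise and the largest fall. A further 5 genes (*DGCR8*, *PRKRA*, *TNRC6A*, *TNRC6B* and *HSP90AB1*) and the oocyte, cumulus and granulosa markers named were chosen after their values were seen. The members and lists were chosen with earlier results of these data known. Each library pools 15 oocytes of 1 collection. The p-values measure the spread between libraries of a group, in which collection and library preparation cannot be told apart. The main fit does not pair the groups by collection.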

Additional observations from a re-analysis of the deposited data

Results flagged for a closer look

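In GV replicate 3, the library left out of the fit, *AGO3* stood at 38.0 TMM-scaled CPM, far from the other GV libraries (11.4 to 14.1 CPM), with a gap of 0.898 of the range of the 5 libraries. The excess was in ENSSSCT00000064566.3, at 7.93 TPM there, 0.653 TPM in GV replicate 5 and 0 in the other 13 libraries. *DROSHA* in MII replicate 5 was low, at 26.9 CPM against 36.4 to 39.0 CPM in the other MII libraries, a gap of 0.780 of the range. Both gaps exceeded the critical value of 0.710 for 5 libraries, among 24 groups examined, where chance gives about 1 in 20. *PIWIL4*, which was not tested, had 3.99 counts in the column with the total of GV replicate 1, above the 3 counts that a count of 0 allows, and 0 in the other 14 columns. That column carries another library's name.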

How the results depend on the processing

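*AGO3* and *PIWIL3* were lower than GV and called in both comparisons under each setting run on the 14 or 15 libraries, of which the filter of 10 CPM bears only on *PIWIL3*, since *AGO3* passed it through the 4 GV libraries alone. In the 8 libraries whose column has their name, a setting chosen after seeing the data, 1 member was lower in each comparison, since *AGO3* (-0.74 and -0.68) lost its call. Of all 13849 genes tested in that setting, 3759 were lower in MII and 3587 in ‘damaged’ oocytes. On library sizes 5 members were lower in each comparison, beside 57.5% of all genes in MII and 55.9% in ‘damaged’ oocytes, and *AGO2* (-0.74 and -0.56), *DROSHA* (-0.50 and -0.67) and *DICER1* (-0.62 and -0.75) changed sign, as did *DROSHA* ENSSSCT00000048093.3 in MII (-0.57). With a filter of 10 CPM in at least 4 libraries *AGO2* (-0.16 and -0.011), *DICER1* (-0.046 and -0.20) and, in ‘damaged’ oocytes, *DROSHA* (-0.11) also changed sign, with no call. *DICER1* in ‘damaged’ against MII was 0.022 in the 8 libraries. Leaving out 1 library took *PIWIL2* in ‘damaged’ against GV from -0.14 to 0.042, and in ‘damaged’ against MII *AGO3* from -0.019 to 0.078 and *PIWIL2* from -0.051 to 0.16, with no call. DESeq2 called 1 member higher in MII, *DROSHA*, and leaving out a library gave 0 to 1, the 1 being without MII replicate 5.

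Of the microRNA partners, library sizes left 1 higher in each comparison, and the 10 CPM filter and the 8 libraries each left 2. Of the Argonaute partners, library sizes gave 10 lower and 2 higher in each, the 10 CPM filter 3 higher in each, and the 8 libraries 3 higher in ‘damaged’ oocytes. Of the piRNA partners, library sizes gave 10 lower and 5 higher in MII and 11 lower and 5 higher in ‘damaged’ oocytes, and the 10 CPM filter and the 8 libraries 3 lower in each. Fewer genes pass the 10 CPM filter, 7465 in all, with 2890 lower and 2498 higher in MII, and 2839 and 2473 in ‘damaged’ oocytes. The 8 libraries hold 2 GV libraries, and 13849 genes were tested there. Of these, 3759 were lower and 3031 higher in MII, and 3587 and 2979 in ‘damaged’ oocytes. How many genes of each list these settings tested is not given here, and the cause was not tested.

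The study took oocytes of each group in each of 5 collections, but the sources used here do not say that a replicate number marks a collection. Same-numbered libraries deviated from their group means with correlations of -0.102 to 0.320 (median 0.0719, above 0 in 12 of 13 pairs and above 0.1 in 3), against -0.276 to 0.274 (median -0.00922) for other numbers. A library correlated best with its own number in 15 of 26 cases. With the replicate block the same counts of members were called, 2 lower and 0 higher in each comparison, and *DROSHA* in MII had a log2 fold change of 0.42 (FDR = 0.0113). In ‘damaged’ against MII the block lowered the smallest FDR of all genes to 0.0236, with 0 called.

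Depth limits *AGO3* and the minor isoforms most: *AGO3* had 78.6 to 296 estimated counts per library of the fit, and ENSSSCT00000018300.4 of *DROSHA* 8.92 to 85.9.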
